A study of Mus musculus with 15 samples.

Results

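Hypoxic B16.F10 cells, a mouse melanoma line, were compared after an siRNA against Hif1a and after a negative control siRNA, with 3 libraries a side. The 6 libraries of this comparison are those whose labels give either treatment without doxorubicin, out of 15 RNA-seq libraries in the series. Genes were matched by gene ID, and the 12766 genes listed in the tables of both groups were compared, of 13172 listed for any group. Every library came from cells in 1% oxygen, so none of them gives a level in normal oxygen. The siRNA cells were reverse-transfected with lipoplexes that held 25 nM siRNA. The other groups, of 3 libraries each, came from untreated cells, from cells given doxorubicin, and from cells that received the Hif1a siRNA before doxorubicin. The untreated libraries entered the fit and serve as a reference level, and the drug-treated libraries entered an alternative fit alone. As a model the comparison is limited to 1 cell line and 1 siRNA treatment per group. The siRNA sequences, and the time from transfection to harvest in cells without the drug, are not given in the sources used here. The replicates are called biological in the labels, but no label says that they were separate cultures, so the p-values reflect the spread between these libraries and that spread may be technical.

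The product of Hif1a is the subunit of the transcription factor HIF-1 that oxygen controls. In oxygen, prolyl hydroxylases mark the protein for destruction through the ubiquitin ligase subunit Vhl. In hypoxia the protein is kept, pairs with the product of Arnt and binds short DNA motifs, the hypoxia response elements, near genes of glucose uptake, glycolysis, pH control, mitophagy, collagen modification and blood vessel growth. In melanoma cells HIF-1 is known for driving glycolysis.

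The 9 libraries of untreated, negative control and Hif1a siRNA cells held 25898384 to 27926937 counted reads each. The 3 groups separated on 2 principal components that held 67.5% and 28.9% of the variance, and no replicates of a group agreed within sampling noise (chi-square per degree of freedom 3.55 to 16.68). Several properties of the libraries moved with the groups: annotated pseudogenes took 4.50 to 5.09% of reads in untreated cells, 3.06 to 3.32% with the negative control siRNA and 1.63 to 1.70% with the Hif1a siRNA, and the TMM scaling factors were 0.852 to 0.866, 0.98 to 0.989 and 1.178 to 1.191 in the same order. The part of these shifts in the results below was not tested. Mitochondrially encoded genes took 1.79 to 2.06% of reads with the negative control siRNA and 1.64 to 2.11% with the Hif1a siRNA. The labelled cell type was checked against its markers: all 9 pigment cell markers were present, with a summed level of 8720 to 9329 CPM with the negative control siRNA and 9185 to 9535 CPM with the Hif1a siRNA. None of 6 T cell and 6 keratinocyte markers was among the genes compared, and of macrophage markers 1 of 7 was (Cd68, 13.2 to 18.3 CPM against 7.23 to 7.68 CPM), of endothelial markers 1 of 5 (Vwf) and of fibroblast markers 3 of 7. In bulk RNA, fewer cells of a kind and less RNA per cell cannot be told apart. CPM scales the reads counted for a gene by the library's TMM-corrected total, without a correction for gene length. Fold changes are log2 values of the Hif1a siRNA against the negative control siRNA with their standard error, and "rose", "fell", "higher" and "lower" are used of genes that passed an adjusted p threshold of 0.05 in edgeR's quasi-likelihood test over the 12766 genes.

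The target of the siRNA was low in each library that received it. Hif1a (gene ID 15251, chromosome 12, 73901324 to 73947554) stood at 299, 280.0 and 275 CPM with the negative control siRNA and at 16.6, 15.9 and 18.9 CPM with the Hif1a siRNA, against 206, 237 and 220.2 CPM in untreated cells. The groups did not overlap, and the 3 negative control libraries lay above all untreated libraries. The fold change was −4.05 ± 0.08, a 16.6-fold difference (edgeR adjusted p = 1.3e-16). This checks the labels and is no finding, since the siRNA chose the gene.

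Most of the transcriptome differed between the siRNAs, with 9152 of 12766 genes called in either direction (71.7%). Of these, 4551 were higher (35.6%) and 4601 lower (36.0%), and 1324 rose by at least 2-fold (10.4%) against 1432 that fell by at least 2-fold (11.2%). The 3 libraries of each group did not overlap for 9894 genes (77.5%). The counts given for gene lists below are to be read against these shares, and the median log2 fold change over all genes tested was 0. Scaling between libraries pulls this median toward 0, so neither it nor the near-equal counts is a finding. The median was 0.044 with upper-quartile factors and 0.057 with all 15 libraries. The negative control siRNA itself stood apart from no treatment: 37.2% of genes had all 3 negative control libraries above all 3 untreated ones and 35.3% had them below. With the Hif1a siRNA those shares were 41.9% and 38.0%. Both siRNA comparisons with untreated cells share those libraries, so untreated levels are given beside the others as a reference and not as support.

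**Figure D1:**
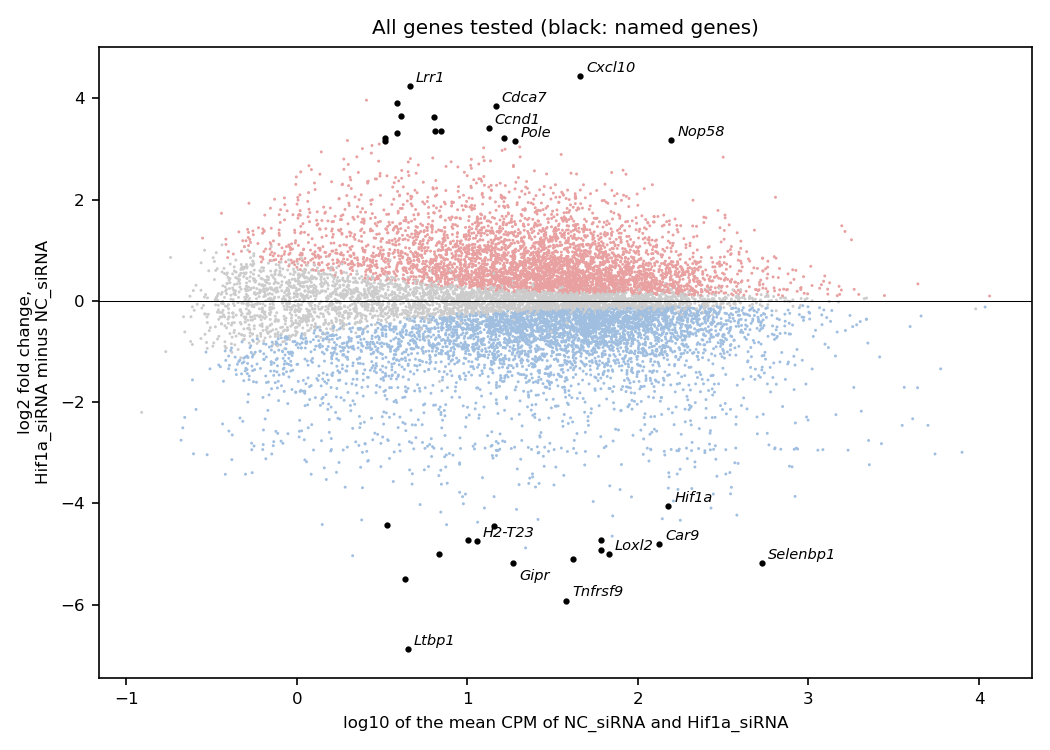
Log2 fold change of the Hif1a siRNA against the negative control siRNA (y axis) against the log10 of the mean CPM of both groups (x axis), 1 point a gene; red genes were higher, blue lower and grey did not pass, and black points are Hif1a and the genes with the largest changes among those without overlap that reach a mean of 5 CPM in a group. Among the black points the largest fall, that of Ltbp1, and the largest rise, that of Cxcl10, lie at −6.88 and 4.45, and the 12766 points lie on both sides of 0.

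The oxygen-sensing system changed with its target. Of 11 tested HIF subunits and oxygen sensors, 9 fell and 2 rose, with a median of −1.53, and 6 fell by at least 2-fold, a count that includes Hif1a. Egln1, a prolyl hydroxylase that marks HIF subunits, went from 492, 518 and 509 CPM to 27.6, 31.0 and 30.5 CPM, and untreated cells held 197, 210.1 and 232 CPM. The Hif1a siRNA libraries were thus the lowest of the 3 groups and the negative control libraries the highest (−4.09 ± 0.07, edgeR adjusted p = 4.4e-17). Egln3, a second such hydroxylase, fell from 17.8 ± 1.4 to 1.11 ± 0.21 CPM (−4.01 ± 0.17). Epas1, which encodes the related subunit HIF-2 alpha, fell from 41.6, 33.8 and 32.7 CPM to 8.48, 9.68 and 10.8 CPM (−1.90 ± 0.11), so the Hif1a siRNA libraries were low for both oxygen-regulated subunits. Vhl went from 166 ± 1.9 to 57.4 ± 2.8 CPM (−1.53 ± 0.06) and Cited2, a competitor for the coactivator of HIF, from 419 ± 9.8 to 126 ± 3.3 CPM (−1.74 ± 0.06). The exceptions were Siah1a (0.67), a ubiquitin ligase that acts on the hydroxylases, and Hif1an (0.58), the asparaginyl hydroxylase of HIF subunits, which rose. Arnt, the constitutive partner, changed by −0.17 ± 0.05, a fall that did not pass in the fit of all 15 libraries (−0.12). Neither Hif3a nor Arnt2 was among the genes compared.

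Glucose uptake and glycolysis had the lowest median of the metabolic lists. Of 20 tested members 17 fell, all 17 by at least 2-fold, 1 rose and 2 did not pass, with a median of −2.21. The glucose transporter gene Slc2a1 (chromosome 4, 119108745 to 119137330), stood at 633, 665 and 667 CPM with the negative control siRNA and at 49.3, 52.0 and 51.9 CPM with the Hif1a siRNA. Untreated cells held 532, 459 and 466 CPM, between the siRNA groups without overlapping either (−3.68 ± 0.06, edgeR adjusted p = 4.1e-17). Hk1, the hexokinase that traps glucose in the cell, went from 496, 492 and 512 CPM to 66.3, 70.1 and 70.0 CPM (−2.86 ± 0.05). Falls of unequal size ran down the pathway. The phosphofructokinase genes Pfkp and Pfkl changed by −2.62 ± 0.05 and −2.91 ± 0.06, the isomerase Tpi1 by −2.18 ± 0.04, the kinase Pgk1 by −2.33 ± 0.04 and the mutase Pgam1 by −2.25 ± 0.04. The falls were smaller in Pkm (−1.72 ± 0.05), Eno1 (−1.71 ± 0.05), Pfkm (−1.40 ± 0.06) and Aldoa (−1.34 ± 0.05), which encode pyruvate kinase, enolase, a phosphofructokinase and aldolase. Gapdh was at 13640, 13890 and 14840 CPM against 1783, 1787 and 1767 CPM (−2.99 ± 0.05), with 24870 to 27410 CPM in untreated cells. Gapdh has many near-identical pseudogene copies, so the split of its reads is uncertain, and the pseudogene share given above moved in the same order as its level. Slc2a3, a high-affinity glucose transporter, went the other way, from 5.31, 3.59 and 3.76 CPM to 14.4, 15.0 and 14.6 CPM (1.80 ± 0.16), and its 3 Hif1a siRNA libraries lay above all others. Pfkfb2 (0.10 ± 0.08) and Pfkfb4 (−0.15 ± 0.14), which set the level of a phosphofructokinase activator, did not pass.

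Steps that decide the fate of pyruvate and remove acid split by gene. Of 16 tested members of this list 12 fell, 3 rose and 1 did not pass, with a median of −0.54. The lactate exporter Slc16a3 went from 338, 341 and 333 CPM to 17.3, 17.4 and 15.6 CPM, with 147, 138 and 149 CPM in untreated cells (−4.33 ± 0.06, edgeR adjusted p = 1.1e-17). Its relative Slc16a1, which moves lactate and pyruvate either way, rose from 55.3, 55.8 and 58.9 CPM to 147, 147 and 146 CPM (1.37 ± 0.06). The monocarboxylate transporters thus changed in opposite directions, and in neither gene did the groups overlap. All 3 tested pyruvate dehydrogenase kinases, which switch off pyruvate dehydrogenase inside the mitochondrion, fell: Pdk1 from 279.9 ± 3.6 to 21.6 ± 0.6 CPM (−3.70 ± 0.06), Pdk3 from 321 ± 8.7 to 32.1 ± 1.8 CPM (−3.32 ± 0.05) and Pdk2 from 26.5 ± 0.39 to 3.77 ± 0.76 CPM (−2.81 ± 0.13). Pdp1, a phosphatase that reverses their action, rose from 4.53, 4.78 and 4.18 CPM to 16.3, 16.8 and 16.9 CPM (1.89 ± 0.14). Pdp2, the other such phosphatase of the list, fell from 20.5, 17.5 and 16.3 CPM to 15.2, 15.6 and 14.65 CPM (−0.26). That call was lost in several alternatives, the fit of all 15 libraries among them. Of the dehydrogenase's own subunits Pdha1 fell from 189, 178 and 175 CPM to 130.5, 123 and 129 CPM (−0.50 ± 0.06), and Pdhb did not pass (0.11 ± 0.05). Ldha, the lactate dehydrogenase subunit, fell from 3923 ± 76 to 581 ± 7.9 CPM (−2.76 ± 0.04). Car9, a carbonic anhydrase at the cell surface that handles acid, stood at 237, 272 and 264 CPM against 8.76, 9.74 and 9.20 CPM. This was the largest fall in the list (−4.80 ± 0.07, a 27.9-fold difference), and untreated cells held 236, 228 and 251 CPM. The bicarbonate transporter Slc4a7 rose (0.70 ± 0.13).

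Mitophagy and hypoxic mitochondrial genes mostly fell. Of 10 tested, 8 fell, Fundc1 rose (0.31 ± 0.06) and 1 did not pass, with a median of −1.19. The mitophagy receptor Bnip3 went from 1414, 1474 and 1314 CPM to 144, 149 and 144 CPM (−3.26 ± 0.06) and its relative Bnip3l from 1155, 1095 and 1121 CPM to 148, 147 and 156 CPM (−2.90 ± 0.04). Both were also far below untreated cells, at 1343 and 1471 CPM. Higd1a, which acts on the respiratory chain in low oxygen, changed by −3.39 ± 0.05, and Fam162a by −3.20 ± 0.05. Pink1, a kinase of the damage-induced mitophagy route, fell by less (−0.89 ± 0.06).

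Collagen-modifying enzymes had the lowest median of the 39 lists, −2.82. Of 13 tested 11 fell, 8 of them by at least 2-fold, and 2 rose. Plod2, a lysyl hydroxylase of collagen, stood at 1678, 1498 and 1507 CPM with the negative control siRNA, 109, 107 and 106 CPM with the Hif1a siRNA and 869.8, 817 and 854 CPM without treatment (−3.86 ± 0.05, edgeR adjusted p = 1.1e-17). The order of the groups was the same for Plod1 and for Loxl2, a lysyl oxidase that cross-links collagen. Loxl2 (chromosome 14, 69608692 to 69695834) went from 134, 129 and 129 CPM to 3.99, 3.90 and 4.33 CPM (−5.00 ± 0.07, 32.0-fold), and Plod1 changed by −3.81 ± 0.08. The prolyl hydroxylase subunits P4ha2 and P4hb fell (−3.18 ± 0.06 and −2.82 ± 0.04), as did P3h3 (−3.03 ± 0.07). P3h2, another prolyl 3-hydroxylase, rose from 3.23, 2.60 and 3.80 CPM to 20.6, 22.2 and 22.8 CPM (2.77 ± 0.12), and the untreated level of 20.4, 18.0 and 17.2 CPM lay near the Hif1a siRNA level. Serpinh1, a collagen chaperone, was higher by 0.11 ± 0.04, a call lost in 5 alternatives, with the replicate block and without NC_siRNA replicate 2, Hif1a_siRNA replicate 1 or Hif1a_siRNA replicate 3 among them.

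Secreted factors that act on blood vessels mostly fell. Of 11 tested 8 fell, 2 rose and 1 did not pass, with a median of −0.93, and 8 of the 19 listed genes were not among those compared. Vegfa, the main endothelial growth factor, went from 827, 1120 and 1008 CPM to 156, 166 and 159.9 CPM (−2.62 ± 0.10). The vasodilator peptide gene Adm went from 41.4, 44.3 and 47.2 CPM to 3.22, 4.14 and 4.54 CPM (−3.48 ± 0.11), and Pgf, a relative of Vegfa, changed by −2.25 ± 0.13. Stc1, a secreted glycoprotein gene, had the largest fall of the list, from 20.2, 20.1 and 18.1 CPM to 0.433, 0.726 and 1.02 CPM (−4.73 ± 0.17). Groups overlapped for none of these 4 genes. The receptors split: Nrp2 fell from 1663 ± 58 to 325 ± 10.0 CPM (−2.35 ± 0.08) while Nrp1 rose from 17.2 ± 0.76 to 28.8 ± 1.7 CPM (0.75 ± 0.08). Vegfc rose (0.79 ± 0.24) and Angptl6 did not pass (−0.16 ± 0.09).

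Demethylases and related enzymes, nearly all of which use 2-oxoglutarate and oxygen, also fell more often than they rose. Of 22 tested 16 fell, 4 rose and 2 did not pass, with a median of −0.82. Tet1, which oxidizes methylated cytosine, stood at 44.4, 38.9 and 43.6 CPM against 3.03, 3.33 and 4.06 CPM, with 44.5, 41.2 and 37.7 CPM in untreated cells (−3.60 ± 0.11). The negative control and untreated libraries overlapped for Tet1 and the Hif1a siRNA libraries were below both. The histone demethylase Kdm4b fell from 220.3 ± 5.8 to 37.1 ± 0.9 CPM (−2.57 ± 0.06), and Jmjd6 from 389.9 ± 20 to 67.9 ± 2.3 CPM (−2.52 ± 0.06). Kdm3a, another histone demethylase, fell by less (−0.72 ± 0.04), as did the RNA demethylases Alkbh5 (−1.64 ± 0.06) and Fto (−0.82 ± 0.05). Kdm4a (0.28), Jmjd1c (0.22), Kdm7a (0.69) and Kdm1a (0.35) rose. Kdm1a stands in this list but is a FAD-dependent demethylase that does not use 2-oxoglutarate.

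**Figure D2:**
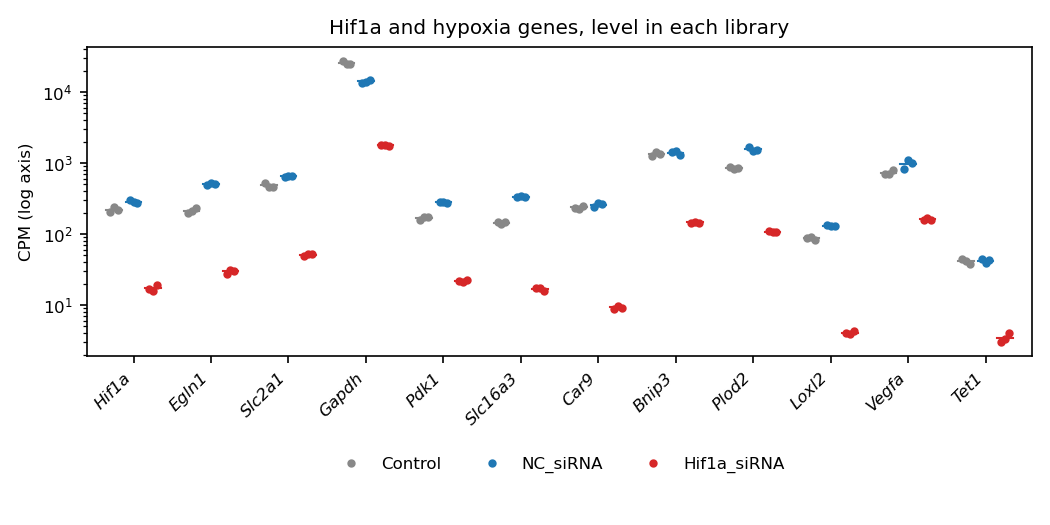
CPM on a log axis for Hif1a and 11 genes of the hypoxia lists; each point is a library, with 3 per group, grey untreated, blue negative control siRNA and red Hif1a siRNA, and short lines are group means. In each of the 12 genes the 3 red points lie below all blue and grey points, from 1779 CPM against 14120 CPM for the Gapdh means to 3.47 CPM against 42.3 CPM for the Tet1 means.

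The promoters of 6 genes with large falls are printed as examples: the glucose transporter Slc2a1, the kinase Pdk1, the carbonic anhydrase Car9, the mitophagy receptor Bnip3, and the closely related Selenbp1 and Selenbp2. They were picked among genes whose promoter holds the letters marked below, so their matches do not show how common such letters are among falls. Each is the 250 bases before the RefSeq start (GRCm38.p6), written 5′ to 3′ in the direction of the gene, and capitals mark the letters ACGTG or GCGTG, the core of the hypoxia response element, on either strand, so that CACGT and CACGC are marked too. The regions are chr4:119108495-119108744, plus strand for Slc2a1, chr2:71872974-71873223, plus strand for Pdk1 (the first of 2 starts in the table), chr4:43506776-43507025, plus strand for Car9, chr7:138909507-138909756, minus strand for Bnip3, chr3:94932833-94933082, plus strand for Selenbp1 and chr3:94693323-94693572, plus strand for Selenbp2.
Slc2a1: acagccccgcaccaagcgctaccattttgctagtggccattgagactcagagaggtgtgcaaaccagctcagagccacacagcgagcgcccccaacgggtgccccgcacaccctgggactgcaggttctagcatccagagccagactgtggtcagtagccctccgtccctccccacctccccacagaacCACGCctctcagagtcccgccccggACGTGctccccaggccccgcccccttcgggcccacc
Pdk1: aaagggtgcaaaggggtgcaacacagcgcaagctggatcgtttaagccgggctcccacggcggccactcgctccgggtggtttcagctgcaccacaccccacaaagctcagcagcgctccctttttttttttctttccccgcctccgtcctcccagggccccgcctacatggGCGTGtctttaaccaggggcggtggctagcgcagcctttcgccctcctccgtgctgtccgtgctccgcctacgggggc
Car9: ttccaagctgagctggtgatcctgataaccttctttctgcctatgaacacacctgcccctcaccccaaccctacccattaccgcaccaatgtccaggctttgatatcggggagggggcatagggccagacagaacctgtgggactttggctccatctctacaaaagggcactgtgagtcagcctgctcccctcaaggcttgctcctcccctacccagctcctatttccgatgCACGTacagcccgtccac
Bnip3: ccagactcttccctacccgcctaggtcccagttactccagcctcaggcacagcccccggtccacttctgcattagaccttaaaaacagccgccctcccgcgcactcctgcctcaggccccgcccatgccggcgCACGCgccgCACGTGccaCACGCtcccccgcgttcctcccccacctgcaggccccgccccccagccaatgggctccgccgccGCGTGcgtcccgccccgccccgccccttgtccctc
Selenbp1: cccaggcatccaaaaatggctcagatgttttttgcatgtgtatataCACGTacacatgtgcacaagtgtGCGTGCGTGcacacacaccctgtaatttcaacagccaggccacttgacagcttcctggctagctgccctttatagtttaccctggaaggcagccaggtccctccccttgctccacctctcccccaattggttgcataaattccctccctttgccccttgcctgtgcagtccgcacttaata
Selenbp2: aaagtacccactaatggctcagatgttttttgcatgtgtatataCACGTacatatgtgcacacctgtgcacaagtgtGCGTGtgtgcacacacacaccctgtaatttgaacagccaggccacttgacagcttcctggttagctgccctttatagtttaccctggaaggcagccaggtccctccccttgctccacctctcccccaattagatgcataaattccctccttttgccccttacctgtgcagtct

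Counted from the start, the first marked letter lies at −61 and −36 in Slc2a1, at −78 in Pdk1 and at −18 in Car9. Bnip3 holds 5 matches, some overlapping, from −117 to −35, in a window with 24 CpG dinucleotides, against 5 CpG in Car9. The Selenbp1 and Selenbp2 windows were identical at 225 of 238 aligned bases (94.5%) and hold 3 and 2 matches, at −204, −181 and −177 and at −206 and −173. A match is a description of the letters and not a bound site. Such letters are common: 10431 of 27025 genes in the RefSeq table (38.6%) have at least 1 match in this window, and 16.6% have ACGTG. That table also holds genes outside the 12766 compared, so its share is no baseline for the lists. Among lists with promoters for at least 80% of members, matches were found in 13 of 19 glycolysis genes (68.4%), 13 of 14 lactate, pyruvate and pH genes (92.9%) and 7 of 9 HIF subunits and oxygen sensors (77.8%). Lists that mostly rose or moved both ways had shares in the same range, among them 13 of 15 circadian clock genes (86.7%), 14 of 19 unfolded protein response genes (73.7%) and 17 of 24 genes of the Myc network (70.8%). The lowest share was that of DNA methylation and chromatin assembly genes, 5 of 17 (29.4%). Among the named genes with the largest changes, 8 of 12 falls (66.7%) and 7 of 12 rises (58.3%) had either motif. With ACGTG alone these were 7 of 12 falls (58.3%) and 1 of 12 rises (8.3%). Selenbp1 and Selenbp2, with their similar windows, count as 2 of those falls. Over the lists with enough promoters, the ACGTG share ran from 0 of 20 interferon-response genes (0.0%) to 9 of 15 clock genes (60.0%). It was 57.1% in the lactate, pyruvate and pH list, 36.8% in glycolysis and 33.3% in mitosis, where nearly all genes rose. The motif contains a CpG, and the median number of CpG dinucleotides in the window ran from 7.0 to 24.0 over the lists with enough promoters. This median was 8.5 in the named falls and 19.5 in the named rises, and 6.0 in the table. The part of CpG content in these shares was not tested. Over all genes that fell by at least 2-fold the table held promoters for 1004 of 1432 (70.1%), and for 1031 of 1324 (77.9%) of those that rose. Both lie under the 80% minimum chosen here, so these sets were not compared. The named falls and the named rises just reach that minimum, with promoters for 12 of 15 genes each (80.0%), so their shares rest on few genes.

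The largest falls outside those lists were in genes of varied function. Ltbp1 (chromosome 17, 75005480 to 75392512), which tethers latent TGF-beta to the matrix, had 256, 211 and 233 reads with the negative control siRNA and 2, 3 and 2 reads with the Hif1a siRNA. The ratio of the pooled reads at equal effective depth was 125, with an exact 95% interval of 60.3 to 312 that covers counting error only. Tnfrsf9 (chromosome 4, 150920155 to 150946104), a costimulatory receptor of the TNF family, went from 69.0, 76.5 and 78.0 CPM to 1.05, 1.27 and 1.35 CPM, with 38.0, 31.0 and 35.6 CPM in untreated cells (−5.92 ± 0.12, edgeR adjusted p = 2.7e-16). Gipr, the receptor of an incretin hormone, went from 29.9, 41.9 and 36.9 CPM to 0.960, 0.938 and 1.08 CPM (−5.18 ± 0.15). Selenbp1, a selenium-binding protein gene also known as a methanethiol oxidase, went from 1007, 1067 and 1032 CPM to 27.1, 29.5 and 29.4 CPM (−5.17 ± 0.07), and Selenbp2 changed by −5.10 ± 0.10. These are near-identical copies, so how reads were divided between the pair is uncertain. All 6 libraries kept their group's order in each of these genes, without overlap, which the rule that named them requires. The copper transporter gene Atp7b (−5.01), the glycogen phosphatase gene Epm2a (−4.92), Proser2 (−5.49), Mgarp (−4.72), which encodes a mitochondrial protein, the vesicle-priming gene Unc13a (−4.45) and Tph1 (−4.43), whose product makes the first step of serotonin synthesis, complete the 15 largest falls with Loxl2, Car9, Stc1 and H2-T23.

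Genes of DNA replication rose without an exception among those measured. All 33 tested members were higher, 28 by at least 2-fold, with a median of 1.58, the highest of the 39 lists. Mcm2, a subunit of the replicative helicase, went from 40.3, 39.8 and 43.3 CPM to 208, 198 and 199.8 CPM, with 87.0, 90.1 and 81.2 CPM in untreated cells (2.29 ± 0.06, edgeR adjusted p = 7.2e-15). The helicase subunits Mcm3, Mcm4 and Mcm6 changed by 2.08 ± 0.08, 1.95 ± 0.06 and 1.92 ± 0.06. Pole, the catalytic subunit of the leading-strand polymerase, rose from 3.75, 3.36 and 4.34 CPM to 33.9, 34.1 and 34.2 CPM (3.16 ± 0.10), and Cdc6, which loads the helicase, from 1.11, 0.917 and 1.39 CPM to 12.4, 10.8 and 11.9 CPM (3.35 ± 0.17). The Hif1a siRNA libraries were the highest and the negative control libraries the lowest for Mcm2, Pole and Cdc6. Over the list, all 3 negative control libraries lay below all untreated ones for 27 of 33 genes, and all 3 Hif1a siRNA libraries lay above all untreated ones for 31 of 33. Pola1 of the priming polymerase (2.29 ± 0.07), the sliding clamp Pcna (1.53 ± 0.05) and Uhrf1 (2.18 ± 0.07), which carries DNA methylation through replication, moved with them.

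Mitosis genes rose in 28 of 29 cases, 21 of them by at least 2-fold, with a median of 1.49, and Cdc25b, a phosphatase that activates mitotic kinases, fell (−0.38 ± 0.08). Their levels against untreated cells differed from those of replication genes: the negative control libraries lay below the untreated ones for 29 of 29, and the Hif1a siRNA libraries lay above them for 18 and below them for 7. Bub1, a checkpoint kinase, stood at 31.4, 32.5 and 35.2 CPM with the negative control siRNA, 142, 134 and 137 CPM with the Hif1a siRNA and 181, 182 and 197 CPM without treatment (2.06 ± 0.06). Mki67, the proliferation antigen, stood at 179.6, 172 and 185, 513, 532 and 474 and 447, 467 and 459.8 CPM in the same order (1.50 ± 0.05). For Bub1 the Hif1a siRNA level was between the other groups, and for Mki67 it was above both. The mitotic cyclins Ccna2 (1.69 ± 0.06) and Ccnb1 (1.63 ± 0.06), the motor gene Kif11 (1.68 ± 0.06) and the kinetochore gene Ndc80 (1.90 ± 0.07) rose as well.

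Regulators of entry into the cycle did not share a direction. Of 26 tested, 13 rose, 11 fell and 2 did not pass, with a median of 0.21. Cyclin D genes went opposite ways. Ccnd1 rose from 2.53, 2.25 and 2.05 CPM to 24.1, 25.4 and 23.6 CPM (3.41 ± 0.12), while Ccnd2 fell from 728, 709.8 and 667 CPM to 271, 277 and 278 CPM (−1.35 ± 0.05) and Ccnd3 from 407, 389.9 and 408 CPM to 116, 118 and 119 CPM (−1.77 ± 0.06). No library of either group overlapped with the other in any of the 3. Among inhibitors, Cdkn1a fell from 644, 683 and 648 CPM to 176, 171 and 177 CPM (−1.92 ± 0.04) and Cdkn1b from 975, 921 and 898 CPM to 276, 259 and 268 CPM (−1.80 ± 0.05). Cdkn1c (−2.92 ± 0.19) and Cdkn2c (−1.19 ± 0.08) fell, and so did the pocket protein gene Rb1, from 217 ± 10 to 57.8 ± 0.65 CPM (−1.91 ± 0.05). Cdk2 (1.70 ± 0.07) and Tfdp1 (1.79 ± 0.07), the partner of E2F factors, rose. E2f1 fell (−0.68 ± 0.07) and Ccne1 did not pass (0.06 ± 0.08).

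Most nucleotide synthesis genes rose. Of 26 nucleotide synthesis genes 23 rose, 13 by at least 2-fold, Impdh1 fell (−1.14 ± 0.08) and Ctps2 and Gmps did not pass (−0.15 ± 0.09 and 0.02 ± 0.05), with a median of 0.98. The purine enzyme gene Gart went from 11.6, 13.2 and 11.3 CPM to 67.6, 71.8 and 67.5 CPM (2.52 ± 0.08). Untreated cells held 13.8, 12.7 and 14.2 CPM, so the Hif1a siRNA libraries were alone in their high level. Tyms, which makes thymidylate, rose from 3.90, 3.44 and 3.91 CPM to 17.9, 18.9 and 19.7 CPM (2.33 ± 0.11), Rrm2, a subunit of ribonucleotide reductase, by 2.21 ± 0.08, and Dctd, a deaminase that feeds thymidylate synthesis, by 3.90 ± 0.23. Serine and one-carbon genes were split, with 9 of 14 higher, 4 lower and 1 not passing (median 0.65). Phgdh and Shmt2, of serine synthesis and its mitochondrial use, rose from 81.2 ± 3.7 to 249 ± 3.3 CPM (1.62 ± 0.05) and from 74.4 ± 3.6 to 210.1 ± 6.3 CPM (1.50 ± 0.06). Mthfd1l, the mitochondrial step that releases formate, fell from 320.3, 340.3 and 337 CPM to 78.7, 78.2 and 78.0 CPM (−2.09 ± 0.05), as did the formyltetrahydrofolate dehydrogenases Aldh1l2 (−1.27 ± 0.05) and Aldh1l1 (−1.08 ± 0.07). The cytosolic Mthfd1 rose (1.31 ± 0.09).

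Homologous recombination and Fanconi anemia genes rose in 16 of 24 cases, 13 by at least 2-fold, with 3 lower, 5 not passing and a median of 1.35. Brip1, a helicase partner of Brca1, rose from 4.39 ± 0.94 to 36.1 ± 1.5 CPM (3.04 ± 0.13), and Rad54l, a motor protein of homologous recombination, by 2.62 ± 0.11. The scaffold partner Bard1 (2.17 ± 0.09) and Brca1 itself (1.68 ± 0.07) rose. Blm (−0.35 ± 0.06) and Fancc (−0.38 ± 0.12) were among those that fell. Of 20 genes of DNA methylation maintenance and chromatin assembly 11 rose and 6 fell (median 0.45), and the falls include all 3 Tet genes. Cdca7, which brings the remodeller Hells to chromatin, rose from 1.60, 2.25 and 1.82 CPM to 29, 26.3 and 26.7 CPM (3.85 ± 0.13), against 1.87, 1.49 and 1.85 CPM in untreated cells, and Hells by 2.02 ± 0.06. Dnmt3a did not pass (−0.03 ± 0.08).

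Most genes of ribosome biogenesis rose while those of ribosomal proteins did not move together. Of 29 tested genes of the Myc network and ribosome biogenesis 21 rose, 7 fell and 1 did not pass, with a median of 1.00. Nop58, a core protein of box C/D ribonucleoproteins, stood at 30.9, 29.1 and 34.0 CPM with the negative control siRNA, 282, 288 and 277 CPM with the Hif1a siRNA and 49.4, 60.8 and 46.7 CPM in untreated cells (3.17 ± 0.09, edgeR adjusted p = 5.8e-14). Its partner Nop56 went from 23.9, 27.4 and 25.5 CPM to 144, 151 and 139 CPM (2.50 ± 0.07). Dkc1, the pseudouridine synthase of the other ribonucleoprotein class, rose by 2.57 ± 0.11, Nop2 by 2.04 ± 0.07 and Gnl3 by 1.92 ± 0.08. The falls included several Myc antagonists, but not every antagonist in the list. Mxd4 went from 186, 199.9 and 222 CPM to 32.0, 32.6 and 33.2 CPM (−2.63 ± 0.07), and Mxi1 (−1.50 ± 0.05), Mxd1 (−0.80 ± 0.09) and Mnt (−0.65 ± 0.07) fell. The other falls were Mlx (−0.60 ± 0.07), Max (−0.22 ± 0.06), whose call was lost with all 15 libraries, and Pes1 (−0.26 ± 0.05), a processing factor. Myc itself rose from 17.6, 18.0 and 18.9 CPM to 33.0, 40.7 and 35.6 CPM (1.00 ± 0.09). Of 76 cytosolic ribosomal proteins 23 rose, 24 fell and 29 did not pass, with a median of 0.01 and a range of −1.07 to 0.53. The lower count was 9 with all 15 libraries. In all 76 the Hif1a siRNA and the negative control libraries lay below the untreated ones. Many ribosomal protein genes have near-identical pseudogenes, so their levels are uncertain.

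**Figure D3:**
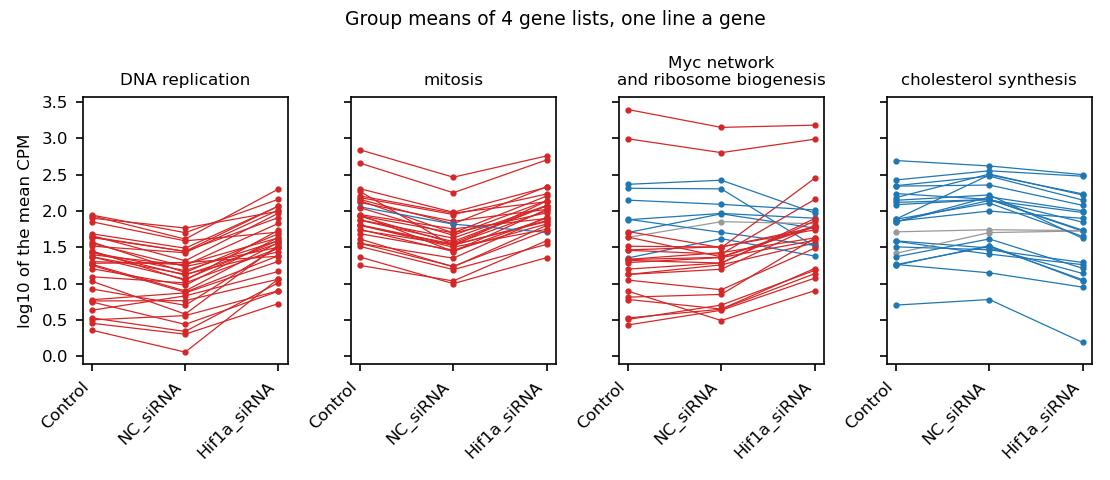
Log10 of the mean CPM in untreated cells (Control), with the negative control siRNA (NC_siRNA) and with the Hif1a siRNA (Hif1a_siRNA) for 4 gene lists, 1 line a gene; red genes were higher with the Hif1a siRNA than with the negative control siRNA, blue lower, and grey did not pass. All 33 replication lines and 28 of 29 mitosis lines rise from the middle to the right, and 22 of 24 cholesterol synthesis lines descend.

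Mitochondrial energy lists had small medians, and single genes lay far from the rest. More genes fell than rose in the respiratory chain and among the mitochondrially encoded genes. Of 75 nuclear-encoded respiratory chain genes 41 fell, 20 rose and 14 did not pass, with a median of −0.16. Ndufv3, an accessory subunit of complex I, fell from 283, 300.0 and 341 CPM to 69.0, 69.7 and 71.0 CPM (−2.14 ± 0.06), the largest change in the list. The complex III hinge protein gene Uqcrh changed by −1.69 ± 0.06 and Cox7b of complex IV by −1.02 ± 0.06. Subunits of succinate dehydrogenase did not move together: Sdhd fell from 132, 125 and 127 CPM to 63.2, 62.0 and 62.3 CPM (−1.04 ± 0.05) and Sdhc from 121, 117 and 124 CPM to 70.0, 70.1 and 73.6 CPM (−0.76 ± 0.06), Sdhb rose from 166, 156 and 169 CPM to 289, 277 and 268 CPM (0.77 ± 0.05), and Sdha did not pass (−0.06 ± 0.05). The membrane anchors of that enzyme were thus lower and its iron-sulfur subunit higher, with no overlap between groups in any of the 3. Each siRNA group lay below untreated cells for 74 of the 75 genes of the chain. Of 15 mitochondrially encoded genes 9 fell, 1 rose and 5 did not pass (median −0.37), and with all 15 libraries 5 fell. Cytochrome b, mt-Cytb, went from 772 ± 77 to 348 ± 45 CPM (−1.15 ± 0.10), whereas mt-Co1 did not pass (−0.16 ± 0.12). Of 17 tricarboxylic acid cycle genes 8 rose, 5 fell and 4 did not pass (median 0.10), led by Suclg2 (1.14 ± 0.05) and Idh3a (0.93 ± 0.07) upward and by Sdhd and Sdhc downward, with smaller falls in Sucla2 (−0.50 ± 0.06) and citrate synthase, Cs (−0.38 ± 0.05).

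Lipid genes fell most uniformly in cholesterol synthesis. Of 24 tested members 22 fell, 11 by at least 2-fold, none rose, and Idi1 and Dhcr7 did not pass (0.07 ± 0.08 and −0.04 ± 0.11), with a median of −0.94. Without NC_siRNA replicate 1 the count of members that rose was 1, Idi1. Nsdhl, a demethylating enzyme late in the pathway, went from 177, 158 and 166 CPM to 44.1, 40.0 and 42.4 CPM (−1.99 ± 0.07). It was also below untreated cells, at 141 CPM. Sqle, a rate-limiting oxidase, fell by less (−1.09 ± 0.05), and Insig1, which retains the pathway's regulator, by −0.96 ± 0.06. Over the list the Hif1a siRNA libraries lay below the untreated ones for 16 of 24 genes and above them for 6. Among 15 genes of lipid droplets and triglyceride 6 fell, 4 rose and 5 did not pass (median −0.08). Hilpda, an inhibitor of the droplet lipase, fell from 44.0, 54.9 and 49.2 CPM to 2.32, 2.72 and 2.38 CPM (−4.32 ± 0.11), a 19.9-fold difference, and Lpin1, a phosphatidate phosphatase, by −2.08 ± 0.07. Gpat3, an acyltransferase that starts triglyceride synthesis, rose from a low level, 0.446, 0.306 and 0.194 CPM, to 2.35, 2.33 and 2.71 CPM (2.94 ± 0.37). Of 19 fatty acid oxidation genes 7 fell, 5 rose and 7 did not pass (median 0.03). The count that rose was 8 with upper-quartile factors and 3 without NC_siRNA replicate 3 or Hif1a_siRNA replicate 3. Cpt1a, the carnitine transferase that admits fatty acids to the mitochondrion, rose from 8.72 ± 0.54 to 23.4 ± 2.0 CPM (1.43 ± 0.11).

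Stress programmes were mixed. In the integrated stress response, the shared answer to amino acid shortage and protein misfolding, 12 of 19 genes rose, 4 fell and 3 did not pass (median 1.09). The amino acid transporters rose: Slc7a11, the cystine importer, from 23.1, 25.4 and 21.8 CPM to 140.1, 147 and 134 CPM (2.58 ± 0.09), Slc7a5 by 1.58 ± 0.05 and their shared heavy chain Slc3a2 by 1.45 ± 0.05. Asns, asparagine synthetase, rose from 193 ± 4.9 to 448 ± 3.9 CPM (1.22 ± 0.05), while the mRNA of the central factor Atf4 stood at 536, 526 and 567 CPM against 583, 583 and 561 CPM and did not pass (0.08 ± 0.05, edgeR adjusted p = 0.12). That call passed with upper-quartile factors and without NC_siRNA replicate 3. Against the list, Ddit4, a hypoxia-inducible brake on mTORC1, fell from 646, 659 and 654 CPM to 157, 153 and 157 CPM (−2.07 ± 0.05) and Vldlr, a lipoprotein receptor, from 27.0, 25.6 and 23.3 CPM to 2.66, 3.39 and 2.77 CPM (−3.10 ± 0.12). Unfolded protein response genes rose in 12 of 22 cases and fell in 5 (median 0.29), and 1 changed by at least 2-fold. This was Hspa5, the main chaperone of the endoplasmic reticulum, which rose from 839.9, 888 and 1009 CPM to 2350, 2379 and 2352 CPM (1.37 ± 0.13), with 1601, 2375 and 1918 CPM in untreated cells. Herpud1 rose (0.97 ± 0.08), Hsp90b1 fell (−0.41 ± 0.05) and the sensors Ern1 (0.03 ± 0.07) and Eif2ak3 (0.03 ± 0.06) did not pass.

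Most heat shock protein genes rose. Of 19 tested 14 rose, 7 of them by at least 2-fold, 4 fell and 1 did not pass, with a median of 0.48. Hspd1, the mitochondrial chaperonin, went from 247, 249 and 253 CPM to 1061, 1028 and 1003 CPM, above the untreated 449, 509.6 and 495 CPM (2.05 ± 0.05, edgeR adjusted p = 3.6e-15), and its partner Hspe1 changed by 1.36 ± 0.05. The others past 2-fold were the chaperone Hsph1 (1.60 ± 0.07), the heat shock factor Hsf1 (1.26 ± 0.08), the near-identical copies Hspa1a (1.75 ± 0.23) and Hspa1b (1.66 ± 0.22), between which reads may be shared, and Hspb1 (1.33 ± 0.32). Hspa1a and Hspb1 stood at low levels, 1.08 and 0.446 CPM with the negative control siRNA. The cytosolic Hspa8 (−0.47 ± 0.05) and Hsp90ab1 (−0.36 ± 0.04) fell. Of 26 antioxidant and iron genes 15 rose and 7 fell (median 0.23). Hmox1, which breaks down haem, fell from 682, 728 and 719.8 CPM to 164, 163 and 158 CPM (−2.13 ± 0.05), and the transferrin receptor Tfrc fell (−1.21 ± 0.07). The thioredoxin reductase Txnrd1 rose from 189, 179 and 164 CPM to 475, 461 and 459 CPM (1.39 ± 0.08), together with Gclm (1.45 ± 0.10) of glutathione synthesis and Nfe2l2 (0.93 ± 0.07), the factor that controls such genes. Steap1, a metalloreductase gene, rose by 3.63 ± 0.23. Of 28 autophagy and lysosome genes 18 fell, 4 rose and 6 did not pass (median −0.34). The cargo receptor Sqstm1 rose against the list, from 801, 817 and 860.0 CPM to 2284, 2326 and 2315 CPM (1.48 ± 0.04), while Atg9a (−1.50 ± 0.06) and Wipi1 (−1.10 ± 0.05), which build the autophagosome membrane, fell. Genes of mTORC1 control rose and fell in 8 of 21 cases each (median −0.11).

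More p53 targets rose than fell, and the BCL2 family showed no shared direction. Of 22 p53 targets 13 rose, 6 fell and 3 did not pass (median 0.45). Aen, a nuclease gene, rose from 12.7 ± 0.89 to 46.4 ± 1.3 CPM (1.87 ± 0.08) and Plk3 by 1.96 ± 0.12, against the fall of Cdkn1a given above. In the BCL2 family, which sets the threshold of cell death, 3 of 11 rose, 4 fell and 4 did not pass, and 2 fell with all 15 libraries. Among protectors Bcl2l1 (1.35 ± 0.07) and Bcl2 (1.23 ± 0.09) rose and Bcl2l2 (−1.25 ± 0.07) fell. Among killers Bid rose (1.34 ± 0.13) and Bcl2l11 fell (−1.43 ± 0.09), so both classes held changes either way.

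Cxcl10 and some interferon-response genes rose from low levels, while the lists they belong to held rises and falls. Cxcl10 (chromosome 5, 92346638 to 92348889), a chemokine that draws activated T cells, showed the largest rise of the comparison by the rule for named genes. It stood at 3.71, 3.82 and 4.53 CPM with the negative control siRNA, 86.7, 90.2 and 86.4 CPM with the Hif1a siRNA and 4.40, 6.05 and 5.95 CPM in untreated cells (4.45 ± 0.10, 21.8-fold, edgeR adjusted p = 1.7e-15). Ccl5, another T cell chemokine, went from 2.41, 3.44 and 3.18 CPM to 12.4, 11.4 and 11.1 CPM (1.95 ± 0.15). In both the untreated and negative control libraries were low and the Hif1a siRNA libraries alone were high. The list of chemokines and cytokines holds 27 genes, of which 8 were compared: 4 rose, 2 fell and 2 did not pass (median 0.31). The list of interferon-stimulated and nucleic acid sensing genes holds 35 genes, of which 25 were compared: 10 rose, 6 fell and 9 did not pass (median 0.24). Among the 10 not compared is Ifit1, which was listed for the Hif1a siRNA only and is described below. These counts and the median thus leave out members that are listed for 1 group only. The ubiquitin-like modifier Isg15 went from 2.19, 2.29 and 1.59 CPM to 7.96, 7.56 and 6.83 CPM (1.88 ± 0.20), the antiviral GTPase Mx2 from 1.49, 1.30 and 1.59 CPM to 8.08, 6.87 and 5.93 CPM (2.25 ± 0.21) and Rsad2 from 12.3, 13.9 and 14.0 CPM to 33.0, 33.1 and 32.2 CPM (1.29 ± 0.08). The nucleic acid sensors Ifih1 (1.61 ± 0.15) and Cgas (1.32 ± 0.16) rose, and Rigi (0.10 ± 0.08), Tlr3 (−0.04 ± 0.21) and Sting1 (−0.22 ± 0.10) did not pass. Among transcription factors of the pathway Irf1 fell (−0.80 ± 0.11), and Stat2 (−0.16 ± 0.10) and Irf9 (0.31 ± 0.17) did not pass. Gbp2, an interferon-gamma induced GTPase, fell from 7.54, 6.99 and 6.43 CPM to 1.02, 0.999 and 0.902 CPM (−2.84 ± 0.19). Its untreated level of 1.11, 0.813 and 0.706 CPM was near that with the Hif1a siRNA, so for Gbp2 the negative control libraries were the ones apart.

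Genes of MHC class I presentation fell more often than they rose, unevenly between loci. Of 16 tested genes 10 fell, 4 rose and 2 did not pass, with a median of −0.42. The classical heavy chain H2-K1 went from 326, 358 and 364 CPM to 39.6, 41.8 and 39.6 CPM, against 350.2, 314 and 328 CPM in untreated cells (−3.11 ± 0.06, edgeR adjusted p = 2.2e-16). The other classical heavy chain, H2-D1, went from 160.3, 168 and 179.6 CPM to 109.5, 116 and 122 CPM (−0.55 ± 0.06), a smaller fall without overlap. H2-T23, a non-classical heavy chain that presents leader peptides to NK receptors, went from 20.7, 23.9 and 21.0 CPM to 0.990, 0.756 and 0.692 CPM (−4.74 ± 0.17). These loci are close relatives that can share reads, so how reads were divided among the loci is uncertain. B2m, the shared light chain, was chosen for mention after its values were seen and fell by less (−0.22 ± 0.06), a call lost with all 15 libraries. The peptide-loading protein Tapbp fell (−1.52 ± 0.09), and the transporter gene Tap2 rose from a low level of 0.735 CPM (1.42 ± 0.28). Cd274, which encodes the checkpoint ligand PD-L1, rose from 23.8, 23.4 and 25.9 CPM to 42.9, 41.3 and 36.2 CPM (0.72 ± 0.09).

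**Figure D4:**
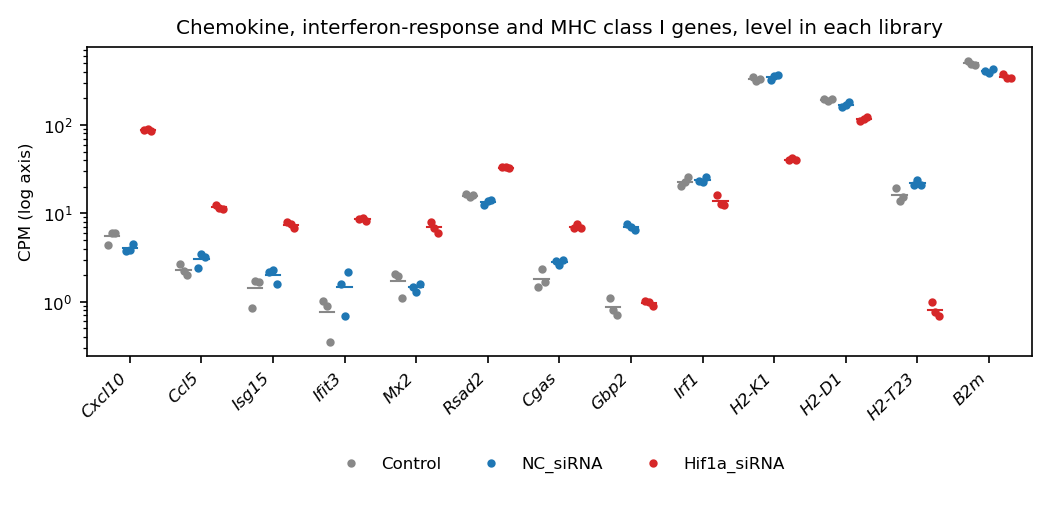
CPM on a log axis for 13 chemokine, interferon-response and MHC class I genes; each point is a library, with 3 per group, grey untreated, blue negative control siRNA and red Hif1a siRNA, and short lines are group means. The red points of Cxcl10 lie near 87.8 CPM above blue points near 4.02 CPM, and those of H2-T23 near 0.813 CPM below blue points near 21.9 CPM.

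NF-kB and immediate early genes were divided. Of 20 NF-kB genes 7 rose, 9 fell and 4 did not pass (median −0.07). Tnfaip3 (−2.45 ± 0.21), a feedback inhibitor, and Nfkbiz (−1.75 ± 0.17), an atypical member of the inhibitor family, fell with Tnfrsf9, while the subunits Rel (0.84 ± 0.09) and Relb (0.97 ± 0.11) rose and Nfkb1 did not pass (0.05 ± 0.09). Of 19 AP-1, immediate early and ERK feedback genes 7 rose, 8 fell and 4 did not pass (median 0.12). Fos went from 24.7, 22.3 and 32.3 CPM to 3.40, 3.18 and 2.95 CPM (−3.05 ± 0.15) and Fosb from 12.0, 13.5 and 17.8 CPM to 0.557, 1.03 and 0.421 CPM (−4.42 ± 0.23), and both were highest in untreated cells, at 51.9 and 22.3 CPM. Ier3, an early response gene linked to survival, fell from 488, 547 and 506 CPM to 57.0, 58.9 and 60.6 CPM (−3.13 ± 0.06). The ERK phosphatases Dusp4, from 15.9, 14.8 and 19.0 CPM to 69.5, 69.4 and 68.9 CPM (2.07 ± 0.08), and Dusp6 (1.71 ± 0.19) rose, as did the ERK inhibitor Spry1 (1.66 ± 0.13), whereas its relative Spry2 fell (−1.36 ± 0.12).

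More pigment cell genes rose than fell against the negative control siRNA, which itself stood low. Of 20 tested 13 rose, 5 fell and 2 did not pass, with a median of 0.44. Pmel, the fibril protein of melanosomes, was at 1071, 1062 and 1108 CPM with the negative control siRNA, 2530, 2430 and 2519 CPM with the Hif1a siRNA and 3628, 3350 and 3542 CPM in untreated cells (1.21 ± 0.04). The Hif1a siRNA level thus lay between the other groups. Trpm1, a channel gene controlled by Mitf, went from 8.80, 9.29 and 11.2 CPM to 43.7, 47.3 and 49.1 CPM (2.26 ± 0.09), above the untreated 32.6, 32.1 and 35.4 CPM, and the melanosome genes Slc24a5 (1.55 ± 0.05) and Gpr143 (2.02 ± 0.10) rose. Among transcription factors Sox9 rose from 2.41, 3.21 and 2.56 CPM to 22.3, 22.0 and 22.3 CPM (3.02 ± 0.14), Tfap2a fell from 309, 319.8 and 326 CPM to 60.6, 62.3 and 59.6 CPM (−2.39 ± 0.05) and Sox10 fell slightly (−0.29 ± 0.05). The melanocortin receptor Mc1r (−1.30 ± 0.06) and the melanin enzyme Tyrp1 (−0.51 ± 0.04) fell, and Mlana, a melanosome antigen gene, did not pass (0.09 ± 0.06).

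Most matrix genes fell, as did the collagen-modifying enzymes. Of 26 genes of matrix, integrins and proteases 18 fell, 10 by at least 2-fold, 7 rose and 1 did not pass, with a median of −0.76. Fibronectin, Fn1, went from 669, 608 and 625 CPM to 123, 116 and 112 CPM, with 398, 409.8 and 379 CPM in untreated cells (−2.44 ± 0.05). The collagen gene Col5a1 changed by −3.16 ± 0.08, the membrane protease gene Mmp14 by −1.86 ± 0.05 and the integrin subunit Itgb1 by −1.17 ± 0.05. For Fn1, Col5a1, Mmp14 and Itgb1 the negative control siRNA gave the highest mean of the 3 groups and the Hif1a siRNA the lowest. Cd44, the hyaluronan receptor (0.83 ± 0.04), and Itga4 (1.17 ± 0.08) rose. TGF-beta signalling genes rose and fell in 10 of 24 cases each (median 0.05). Beside Ltbp1, the receptor Tgfbr3 (−1.42 ± 0.08) and the ligand Tgfb3 (−0.99 ± 0.08) fell, the ligand Tgfb1 (1.20 ± 0.10) and the repressor Tgif1 (1.25 ± 0.08) rose, and Id1, a target of the related BMP route, rose from 0.780, 1.07 and 1.24 CPM to 5.94, 5.08 and 6.11 CPM (2.47 ± 0.21), near its untreated 4.84 CPM.

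Clock genes changed without a shared direction, with 5 of 16 higher, 7 lower and 4 not passing (median 0.06). Bhlhe40, a repressor that hypoxia is known to induce, fell from 330.0, 359 and 353 CPM to 81.7, 84.4 and 92.8 CPM (−2.01 ± 0.06), and the receptor gene Rora by −1.57 ± 0.07. Cry1, a repressor of the core loop, rose from 13.7 ± 1.9 to 32.9 ± 0.42 CPM (1.26 ± 0.09), Bmal1 fell (−0.37 ± 0.08) and Clock, its partner, rose (0.36 ± 0.10).

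**Figure D5:**
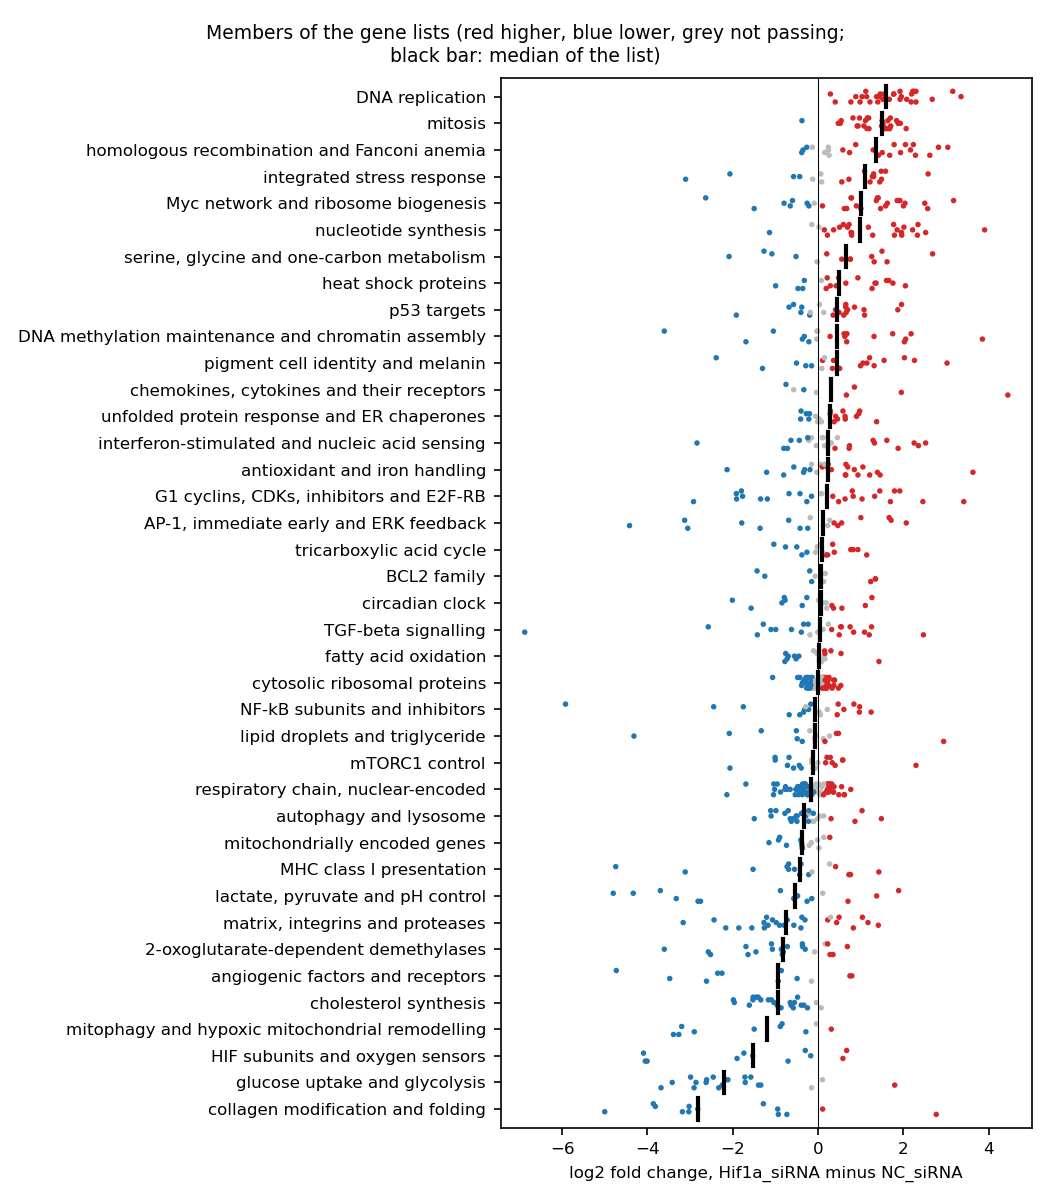
Log2 fold change of each tested member (x axis) in the 39 gene lists (y axis, ordered by median); red members were higher, blue lower and grey did not pass, and the black bar is the list's median. Medians run from −2.82 for collagen modification to 1.58 for DNA replication, and single members such as Ltbp1 at −6.88 lie far from their list.

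Beside the genes given with their pathways, the 15 largest rises by the naming rule include Lrr1, which takes part in unloading the replicative helicase, from 0.297, 0.917 and 0.155 CPM to 9.87, 7.20 and 9.05 CPM (4.24 ± 0.35), Trip13 (3.36) of the mitotic checkpoint, Chek1 (3.22), the kinase of the replication checkpoint, and Tcf7 (3.16), a factor of Wnt signalling. Adhfe1 (3.66), a hydroxyacid-oxoacid transhydrogenase gene, Dus4l (3.31), which encodes a tRNA-modifying enzyme, and Cftr (3.23), the chloride channel, complete them.

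Some genes could not be compared because the tables list them for 1 of the groups only. There were 128 such genes for the Hif1a siRNA, 63 of them protein-coding, and 53 for the negative control siRNA, 21 of them protein-coding, and a gene that is not listed has no value in that group. Each listed gene reaches 10 reads in at least 3 of 6 libraries, those of the siRNA group and of the untreated cells. This was checked on listed genes only and does not account for every missing gene. For example, a pseudogene listed for the Hif1a siRNA only had 10, 17 and 15 reads in untreated cells. A gene with few untreated reads can be listed only through its reads in the siRNA group, so any rise over untreated cells is largely set by that rule. All 3 libraries of the listing group had more reads than all untreated ones for 71 of the 128 genes and 18 of the 53. The reads are given as a description. Ifit1, an interferon-induced RNA-binding protein gene, had 317, 337 and 274 reads with the Hif1a siRNA against 10, 9 and 8 in untreated cells. Ifit3b had 96, 73 and 71 reads against 14, 4 and 3, and shares sequence with Ifit3, so its reads are uncertain. Gbp7, a guanylate-binding protein gene, had 52, 57 and 55 against 4, 10 and 8. Aunip, which encodes a partner of the Aurora A kinase, had 122, 130 and 116 reads against 7, 20 and 4. Of genes listed for the negative control siRNA only, Slc17a9 had the most reads, 25, 33 and 41, against 7, 9 and 7 in untreated cells.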

How the data were processed

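Per the labels' protocols, an RNeasy kit gave the RNA and a TruSeq Stranded mRNA kit the libraries. The submitters' processing notes name HISAT2 2.1.0, StringTie 2.1.3b, Bowtie2 2.3.4.1, Trimmomatic 0.38, FastQC 0.11.7 and the mm10 build, and the strand setting of the counting is not given in the sources used here. The authors deposited raw read counts per gene, without normalization. Each gene listed for a siRNA group reaches 10 reads in 3 or more of 6 libraries, those of the group and of Control. Repeated rows (25 and 24 in the siRNA tables) were kept once. Symbols missing for 1318 genes were taken by gene ID from RefSeq, and 19 have none.

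From these counts edgeR 4.0.16 in R 4.3.3 fitted 9 libraries (Control, NC_siRNA and Hif1a_siRNA, the submitters' groups) with TMM scaling, a group term, robust dispersions and the two-sided quasi-likelihood test, with 6 residual degrees of freedom. The common biological coefficient of variation was 0.069, the low-count filter (10 reads, total of 15) removed 0 genes, and p-values were Benjamini-Hochberg adjusted over 12766 genes. Lists were described by counts and medians, with no set test. Members and lists were chosen with earlier results of these data known. Named genes are Hif1a, the 15 largest rises and falls among called genes without overlap that reach a mean of 5 CPM in a group, leaving out clone and prediction names, and, in each list, the 8 members whose adjusted p was smallest. All other members named, such as exceptions, those not passing, Arnt and B2m, were picked with their values in view. Some members of a list may not be reported here; they stay in every fit and count.

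Tested on simulated data for this comparison with 12766 genes, the procedure recovered 74.2% of 1.5-fold, 91.3% of 2-fold and 100% of 4-fold changes, and 4.8% of its calls were of unchanged genes; far more genes were called in the real comparison than were simulated to change. The fit was repeated with DESeq2 1.42.0, limma-voom (limma 3.58.1), RLE and upper-quartile factors, a threshold of 0.01, without the filter or with 1 CPM required in 3 libraries, and with a replicate block. Other alternatives were fits of the 6 compared libraries and of all 15, protein-coding nuclear genes only, leaving out each siRNA library in turn, and ACGTG as the only promoter motif.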

Additional observations from a re-analysis of the deposited data

How the results depend on the processing

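Over 17 alternatives the counts of genes that rose (4551) and fell (4601) ran from 4020 to 4840 and from 3972 to 4803, and those past 2-fold (1324 and 1432) from 1223 to 1466 and from 1173 to 1452. The alternative without the filter repeats the main fit, since the filter removed 0 genes, so it is no check. The threshold of 0.01 uses the main fit too and can change calls but no fold change. Leaving out each siRNA library in turn gave 4327 to 4413 and 4257 to 4403 genes, 1342 to 1373 and 1417 to 1452 past 2-fold, and a Hif1a fold change of −4.12 to −3.99, against −4.06 to −3.99 in the other alternatives. Of 882 list members and named genes, 751 kept their side of the threshold in every alternative, 80 lost it and 51 gained it in at least 1, and 0 reversed; the 30 genes named for the largest changes kept theirs. Of 78 list counts 7 moved by more than 1.5 times in some alternative, and the cause was not tested. Among genes given as not passing, Angptl6, Atf4, Idi1, Irf9, Pdhb, Stat2 and Sting1 passed in at least 1 alternative. The share of RefSeq promoters with a match was 38.6% for ACGTG or GCGTG and 16.6% with ACGTG alone, a narrower motif by construction. Replicate numbers are shared by the siRNA groups, but the deviations of same-numbered libraries correlated at 0.019, 0.12 and 0.021 over genes, so the numbers are not taken as pairs; with the replicate block 4518 genes rose and 4551 fell, 1327 and 1435 by at least 2-fold, and the Hif1a fold change was −4.05. Genes with few reads, such as Ltbp1, Gpat3 and the interferon-response genes, carry the largest counting error.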
